A study of Mus musculus with 12 samples.

Results

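The genotype difference described here is that between splenic regulatory T cells (Treg) with and without CD18, measured by RNA-Seq in the 6 libraries that were cultured without receptor stimulation, out of 12 libraries in all. The 3 CD18Foxp3 libraries came from mice with a floxed Itgb2 gene (CD18fl/fl) and the Foxp3Cre allele (Foxp3tm1[cre]/Saka), in which Cre removes exon 3 in cells that express Foxp3. The 3 CD18wt libraries came from littermates with intact Itgb2 (CD18wt/wt) and the same Foxp3Cre allele, so the controls carried Cre as well. Both groups also carried an RFP reporter in the ROSA26 locus, and RFP+CD4+ cells of the spleen were sorted and kept overnight in 5 U/ml recombinant human IL-2. The mice were matched for age and sex, and the age itself is not given in the sources used here. In the other 6 libraries, 3 of each genotype, the same culture was supplemented with antibodies to CD3 (1 μg/ml) and to CD28 (2 μg/ml). Each library is labelled a biological replicate. Because RNA of whole sorted populations was read, fewer cells of a kind and less RNA per cell cannot be told apart.

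Treg restrain other lymphocytes and dendritic cells, and depend on the transcription factor Foxp3. CD18 is the β2 chain that pairs with CD11 chains to form the leukocyte integrins, among them LFA-1, which binds ICAM-1 and holds T cells to antigen-presenting cells. Treg are not uniform. Follicular Treg enter B cell follicles under the control of Bcl6, other Treg take on features of type 1 or type 2 helper cells, and effector Treg are distinguished from central, resting Treg by activation markers and homing receptors. The genes below were grouped along these lines, and by interferon response, metabolism and cell cycle, in order to see which groups were shifted beyond the genes that the study had already labelled in its plot of this contrast.

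Itgb2 was examined first, since it is the deleted gene. Its position in GRCm38 is chromosome 10, 77530252 to 77565708, and exon 3 of the GENCODE transcript, at chr10:77542398-77542486 on the plus strand, is the part that Cre removes. The sequence is shown because its 89 bases are a small share of the exons that were counted, so that reads of the other exons stay countable after deletion.
Itgb2 exon 3: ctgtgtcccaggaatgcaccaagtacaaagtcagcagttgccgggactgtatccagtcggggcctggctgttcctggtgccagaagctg
Itgb2 reached 465, 431 and 387 TPM in the CD18wt libraries and 229, 257 and 234 TPM in the CD18Foxp3 libraries. Every CD18Foxp3 library lay under every CD18wt library (log2 fold change -0.85, SE 0.09, adjusted p = 0.00408, edgeR quasi-likelihood test with Benjamini-Hochberg adjustment), so Itgb2 RNA fell without disappearing. Foxp3, which defines Treg, was measured at 95.5, 108 and 73.4 TPM in the CD18wt libraries and 102, 97.3 and 101 TPM in the CD18Foxp3 libraries, and the libraries overlapped. None of the 19 tested identity genes passed the test, and their median log2 fold change was 0.07. Without CD18wt replicate 3, the library described next, 1 of them rose, against 68 of all 11829 genes tested, and their median was -0.02.

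Exon reads per library ranged from 10665174 to 19005482. CD18wt replicate 3 stood apart: it held the fewest reads, reads over introns made up 3.32% of its gene reads against 4.75 to 5.02% in the others, and its correlation with each other library (log2 CPM) was 0.959 to 0.965 where the other pairs reached 0.9715 to 0.9848. Results that this library moved are therefore given with and without it. Of 41457 genes, 11829 had enough reads to be tested. The study called a gene at a 1.5-fold change or more with an adjusted p up to 0.01, and 16 genes passed these thresholds, which is 0.135% of those tested. Of these, 6 rose and 10 fell, and 11 were among the 25 genes labelled by the study. With an adjusted p up to 0.05 and no minimum fold change, 42 genes passed, or 0.355% of the genes tested. Among them, 17 rose (0.144%) and 25 fell (0.211%), and 17 were labelled genes, which were chosen on these libraries and are not independent evidence. In the text that follows, rose and fell refer to this second threshold. Without CD18wt replicate 3 it was passed by 183 genes, 40 of the 42 among them, and with all 12 libraries in 1 fit by 5. It was passed by 32 genes without CD18wt replicate 1, 14 without CD18wt replicate 2, 20 without CD18Foxp3 replicate 1 or 2, and 13 without CD18Foxp3 replicate 3. The count at the thresholds of the study was 44 without CD18wt replicate 3 and 0 to 2 without any other library. Of the 11829 genes tested with all 6 libraries, 68 rose and 108 fell without CD18wt replicate 3. DESeq2 called 86 of them higher and 124 lower. An unadjusted p under 0.05 in edgeR was seen for 1134 of the 11829 genes. Gene levels are given as TPM, the share of transcripts on a fixed total per library, computed from the deposited exon reads and the exon length, listed in the order of replicates 1, 2 and 3.

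Of the 25 genes that passed and were not labelled by the study, 9 rose and 16 fell, and no gene had overlapping libraries. Selection by this test favours genes with separate libraries, so the separation is not further evidence. Several of the genes that fell encode transcription factors and their partners. Hif1a, the oxygen-regulated subunit of the hypoxia-inducible factor, lies on chromosome 12 from 73901375 to 73947530. It reached 215, 245 and 214 TPM in the CD18wt libraries and 134, 133 and 156 TPM in the CD18Foxp3 libraries, a mean of 225 ± 17.5 TPM against 141 ± 12.9 TPM (SD, n = 3 each). The 3 CD18wt libraries were close to each other and all above the CD18Foxp3 libraries (log2 fold change -0.69, SE 0.09, adjusted p = 0.00640). Cebpa, which encodes the transcription factor C/EBPα known from myeloid differentiation (chromosome 7, 35119293 to 35121928), was measured at 34.6, 38.4 and 36.2 TPM in the CD18wt libraries and 21.5, 18.04 and 20.5 TPM in the CD18Foxp3 libraries (log2 fold change -0.89, SE 0.12, adjusted p = 0.00912). Pou2f2, the octamer-binding factor Oct-2 (chromosome 7, 25087344 to 25179726), stood at 36.8, 43.0 and 43.6 TPM in the CD18wt libraries and 25.8, 28.0 and 23.1 TPM in the CD18Foxp3 libraries. The groups were well separated, with CD18Foxp3 replicate 3 lowest (log2 fold change -0.71, SE 0.11, adjusted p = 0.0207). Its partner Pou2af1, a coactivator of octamer factors and a labelled gene, fell by 1.47 on the log2 scale. Zfpm1, also called FOG-1, a cofactor of GATA factors, had a log2 fold change of -0.55 (adjusted p = 0.0182).

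Genes of surface receptors and signalling also fell. Pdcd1, which encodes the coinhibitory receptor PD-1 (chromosome 1, 94038305 to 94052553), reached 341, 405 and 375 TPM in the CD18wt libraries and 256, 266 and 284 TPM in the CD18Foxp3 libraries. All CD18Foxp3 libraries were lower, and the gap between the groups was narrower than the range of the CD18wt libraries (log2 fold change -0.50, SE 0.09, adjusted p = 0.0334). Ptpn11 encodes SHP-2, a phosphatase that PD-1 can recruit, and was at 67.7, 75.8 and 74.0 TPM in the CD18wt libraries and 48.8, 51.7 and 56.6 TPM in the CD18Foxp3 libraries (log2 fold change -0.50, SE 0.09, adjusted p = 0.0334). Cd200, the ligand of the inhibitory receptor CD200R (chromosome 16, 45382135 to 45409053), stood at 60.3, 70.9 and 62.4 TPM in the CD18wt libraries and 41.9, 43.3 and 48.7 TPM in the CD18Foxp3 libraries (log2 fold change -0.56, SE 0.09, adjusted p = 0.0286). Tbc1d4, a GTPase-activating protein for Rab proteins that governs glucose transporter traffic (chromosome 14, 101442360 to 101609191), had 143, 139 and 138 TPM in the CD18wt libraries and 90.3, 96.6 and 74.7 TPM in the CD18Foxp3 libraries. The CD18wt libraries were nearly equal, and CD18Foxp3 replicate 3 was lowest (log2 fold change -0.70, SE 0.11, adjusted p = 0.0156). Slc16a10, a transporter of aromatic amino acids, was low in both genotypes at 3.13, 3.25 and 2.64 TPM in the CD18wt libraries and 1.07, 1.08 and 1.01 TPM in the CD18Foxp3 libraries, and had the largest fall of the unlabelled genes read mostly from unique placements (log2 fold change -1.54, SE 0.23, adjusted p = 0.0140). Cybb, the catalytic subunit of the phagocyte NADPH oxidase, reached 49.1, 51.1 and 46.2 TPM in the CD18wt libraries and 33.0, 34.4 and 34.8 TPM in the CD18Foxp3 libraries (log2 fold change -0.54, SE 0.08, adjusted p = 0.0139). Spock2, an extracellular proteoglycan, and Ntrk3, a neurotrophin receptor, fell by 0.64 and by 0.98 on the log2 scale.

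The unlabelled genes that rose were fewer and of other kinds. Rab27a, a small GTPase for the docking of secretory granules (chromosome 9, 73044854 to 73097629), reached 118, 109.7 and 89.9 TPM in the CD18wt libraries and 154, 153 and 174 TPM in the CD18Foxp3 libraries (log2 fold change 0.57, SE 0.09, adjusted p = 0.0195). Arl4c, another small GTPase, was at 92.4, 101 and 86.2 TPM in the CD18wt libraries and 138, 121 and 146 TPM in the CD18Foxp3 libraries (log2 fold change 0.50, SE 0.09, adjusted p = 0.0286). Every CD18Foxp3 library was above every CD18wt library for both genes. Plac8, which encodes a small cysteine-rich protein, was low in CD18wt Treg at 2.97, 4.19 and 5.57 TPM and stood at 12.5, 12.5 and 16.5 TPM in CD18Foxp3 Treg (log2 fold change 1.69, SE 0.29, adjusted p = 0.0320). Chil5, a chitinase-like gene, showed 8.78, 7.47 and 7.51 TPM in the CD18wt libraries and 19.2, 14.9 and 20.7 TPM in the CD18Foxp3 libraries (log2 fold change 1.18, SE 0.21, adjusted p = 0.0401). Trib2, a pseudokinase, and Phlpp1, a phosphatase that acts on the kinase Akt, rose by 0.48 and 0.60 on the log2 scale. Als2cl, related to the guanine nucleotide exchange factor alsin, rose by 0.58. Over 15 alternative settings of the test, Hif1a was called in 12, Cebpa in 11 and each other gene shown in the plot of called genes in 9 or 10, always in the direction given.

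**Figure D1:**
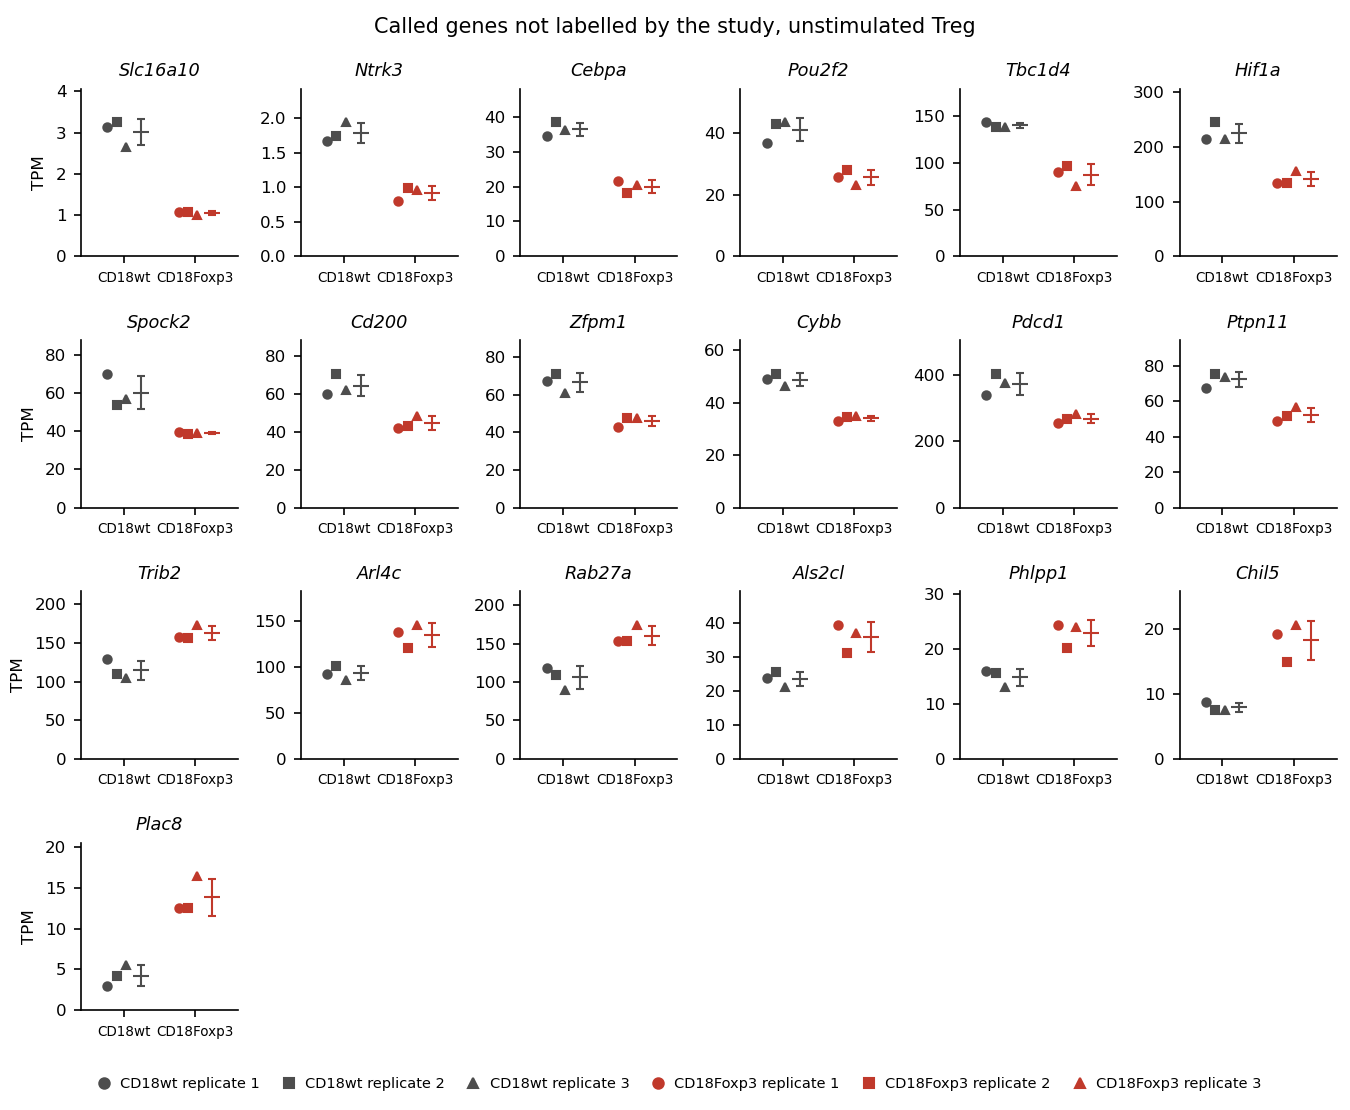
Level of the 19 genes that passed an adjusted p of 0.05, were not labelled by the study and had at least 50% of reads placed uniquely, in TPM for each of the 6 unstimulated libraries, with the mean and SD of each genotype. In each panel the 3 CD18Foxp3 points lie all above or all below the 3 CD18wt points, from Ntrk3, at no more than 1.94 TPM, to Pdcd1, at no less than 256 TPM.

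Several genes that fell are also expressed by B cells or myeloid cells, and the levels of markers of such cells are given beside them. The defining B cell gene Ms4a1 was at 0 to 0.557 TPM over the 6 libraries, and Ighm, Ighd and Igkc were listed at 0 in all 6. The summed level of the 19 B cell markers was 168, 176 and 152 TPM in CD18wt Treg and 184, 232 and 270.2 TPM in CD18Foxp3 Treg. Cd74, the invariant chain of MHC class II, made up most of that sum with 109.6, 125 and 108 TPM in the CD18wt libraries and 147, 185 and 217 TPM in the CD18Foxp3 libraries (log2 fold change 0.65, adjusted p = 0.0531). The 9 tested B cell markers had a median log2 fold change of -0.22, with 6 negative, 2 wholly below and Cd74 alone wholly above. For this and the next marker lists, 6.9% of all genes tested lay wholly below and 8.74% wholly above. The markers below were Pax5, the factor that maintains B cell identity, at 0.534, 0.453 and 0.556 TPM in the CD18wt libraries and 0.0633, 0.274 and 0.0182 TPM in the CD18Foxp3 libraries (log2 fold change -2.14, adjusted p = 0.331), and Bank1, a B cell adaptor, with a log2 fold change of -0.88 (adjusted p = 0.337). Cd22, an inhibitory receptor of B cells, stood at 10.0, 8.48 and 5.27 TPM in the CD18wt libraries and 4.67, 5.47 and 4.14 TPM in the CD18Foxp3 libraries (log2 fold change -0.76, adjusted p = 0.236), and it fell without CD18wt replicate 3 (-0.95, adjusted p = 0.0167). The part of these cells in the falls of Pou2f2 and Pou2af1, which B cells express strongly, was not tested. The summed level of 15 myeloid and dendritic cell markers was 619 to 712 TPM, of which the protease gene Ctss accounted for 606 to 701 TPM, and Adgre1 and Siglech were listed at 0 in all 6 libraries. Of the 4 tested markers of this list, 3 had a negative log2 fold change (median -0.19, lowest -1.68), and all 4 overlapped between genotypes. The part of myeloid cells in the falls of Cebpa and Cybb was not tested. Plasma cell markers summed to 58.9 to 73.2 TPM, nearly all of it Xbp1, and markers of CD8 T cells and NK cells to 28.8 to 40.0 TPM, most of it Cd8b1. Of the 4 tested markers of CD8 T cells and NK cells, 3 had a negative log2 fold change and 1 lay wholly below (median -0.64). Erythroid and platelet markers summed to 1.83 to 58.4 TPM, with CD18Foxp3 replicate 2 highest. No marker passed the test in edgeR with all 6 libraries. All 6 libraries held reads of the Y-linked gene Ddx3y, at 33.9 to 61.5 TPM.

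Genes of follicular Treg lay lower more often than higher. Of 25 tested members, 2 fell, Pdcd1 and Cd200, and none rose, while DESeq2 called 2 higher and 5 lower. Over all 11829 genes tested, DESeq2 called 86 higher and 124 lower. The CD18Foxp3 libraries lay wholly below the CD18wt libraries in 9 members and wholly above in 4, where 6.9% and 8.74% of all genes tested did so. The median log2 fold change of the list was -0.17, against -0.0044 over all genes tested. Bcl6, the factor that directs the follicular program, was at 26.1, 23.9 and 21.9 TPM in the CD18wt libraries and 15.1, 20.02 and 12.4 TPM in the CD18Foxp3 libraries (log2 fold change -0.62, SE 0.16, adjusted p = 0.193). Maf, a factor that supports follicular T cells, had 107, 89.0 and 126 TPM in the CD18wt libraries and 77.8, 75.8 and 80.4 TPM in the CD18Foxp3 libraries (log2 fold change -0.49, SE 0.13, adjusted p = 0.185). Neither passed the test, though the libraries of the genotypes did not overlap for either. Angptl2, a secreted angiopoietin-like protein, had a log2 fold change of -0.64 (adjusted p = 0.0656). Il1r2, the decoy receptor for IL-1, was the member most in the other direction, with a log2 fold change of 0.67 (adjusted p = 0.160). The labelled genes Il21, Tox2 and Ascl2, the last a factor that starts the follicular program, fell by 1.78, by 0.72 and by 2.91 on the log2 scale, and are known from follicular T cells too. Without CD18wt replicate 3, 4 members of the list fell, against 108 of all 11829 genes tested, and the median of the list was -0.14. Of the B cell markers given above, 6 of 9 had a negative log2 fold change, and their part in this result was not tested.

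The interferon-inducible GTPases lay mostly higher in CD18Foxp3 Treg. These proteins, of the IRG and GBP families, guard against intracellular pathogens and are induced by interferon-γ, in part through an interferon-stimulated response element (ISRE) in the promoter. Promoters from 250 bases before to 50 bases after the start were found in RefSeq (GRCm38.p6) for 11 of the 20 genes. The ISRE was searched on both strands as the letters GAAA, any 2 bases and again GAAA, and was present in 10 of the 11, against 3.89% of the 9124 tested genes with a promoter. A match is a description of the letters and not a binding site. The 120 bases before the start are shown for members whose levels are described next, 5′ to 3′ on the strand of the gene, with ISRE letters of either strand in capitals. Igtp and Irgm2 lie near each other on chromosome 11, and so do Tgtp1 and Tgtp2. Ifi47 is shown as the member without a match. Gbp5, whose level is also described next, holds a match 165 bases before the start, outside the bases shown. No promoter was found for Gbp9.
Tgtp1, chr11:48992247-48992366, minus strand: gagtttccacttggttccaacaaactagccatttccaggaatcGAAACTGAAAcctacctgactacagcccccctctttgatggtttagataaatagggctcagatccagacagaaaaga
Tgtp2, chr11:49064213-49064332, minus strand: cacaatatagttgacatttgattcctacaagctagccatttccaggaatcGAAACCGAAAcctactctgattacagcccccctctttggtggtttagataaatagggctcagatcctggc
Irgm1, chr11:48871421-48871540, minus strand: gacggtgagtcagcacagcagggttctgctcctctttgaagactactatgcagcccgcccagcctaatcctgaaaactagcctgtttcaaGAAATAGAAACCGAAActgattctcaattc
Igtp, chr11:58199436-58199555, plus strand: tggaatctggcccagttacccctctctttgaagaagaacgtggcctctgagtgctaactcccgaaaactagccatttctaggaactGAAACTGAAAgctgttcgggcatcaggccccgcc
Irgm2, chr11:58214857-58214976, plus strand: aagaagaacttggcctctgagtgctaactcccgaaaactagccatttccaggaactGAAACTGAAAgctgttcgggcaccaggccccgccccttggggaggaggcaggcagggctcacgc
Gbp2, chr3:142620543-142620662, plus strand: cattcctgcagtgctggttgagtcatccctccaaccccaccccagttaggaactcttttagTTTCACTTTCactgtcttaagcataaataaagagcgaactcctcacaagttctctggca
Ifi47, chr11:49076467-49076586, plus strand: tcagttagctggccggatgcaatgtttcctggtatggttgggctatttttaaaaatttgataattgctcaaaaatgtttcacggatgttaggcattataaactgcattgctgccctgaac

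Of the 20 GTPases tested, 1 rose, Tgtp1, and none fell. In 13 of them, or 65%, all CD18Foxp3 libraries lay above all CD18wt libraries, against 8.74% of all genes tested. In none did they lie below, against 6.9%, and the fitted log2 fold change was positive in 19. The median was 0.35, and it stayed positive without CD18wt replicate 3 (0.28). In that fit 6 members rose, against 68 of all 11829 genes tested. Tgtp1 was at 91.7, 99.8 and 77.1 TPM in the CD18wt libraries and 147, 134 and 149 TPM in the CD18Foxp3 libraries (log2 fold change 0.66, SE 0.09, adjusted p = 0.00912), but only 14.3% of its reads were placed uniquely. Tgtp2, with which it shares 77.7% of its 59-base words, was at 156, 162 and 163 TPM in the CD18wt libraries and 222, 199 and 266 TPM in the CD18Foxp3 libraries (log2 fold change 0.48, SE 0.10, adjusted p = 0.0616). Reads of this pair cannot be assigned to 1 of them with certainty, and on unique reads alone Tgtp1 had an adjusted p of 0.0492. Irgm1, whose reads were all placed uniquely, stood at 43.2, 54.2 and 46.5 TPM in the CD18wt libraries and 67.1, 70.1 and 68.9 TPM in the CD18Foxp3 libraries (log2 fold change 0.49, SE 0.09, adjusted p = 0.0531). The CD18Foxp3 libraries were tight and higher, and Irgm1 was just outside the threshold with all 6 libraries and inside it without CD18wt replicate 3 (adjusted p = 0.0116). Irgm2 reached 37.1, 46.4 and 47.1 TPM in the CD18wt libraries and 54.4, 53.7 and 65.2 TPM in the CD18Foxp3 libraries (log2 fold change 0.38, SE 0.12, adjusted p = 0.266), with no overlap, and it also passed without that library (adjusted p = 0.0393). Igtp had 309, 366 and 370.4 TPM in the CD18wt libraries and 457, 444 and 574 TPM in the CD18Foxp3 libraries (log2 fold change 0.47, SE 0.11, adjusted p = 0.124), with CD18Foxp3 replicate 3 highest. Gbp2 was at 186, 186 and 173 TPM in the CD18wt libraries and 236, 209 and 266 TPM in the CD18Foxp3 libraries (log2 fold change 0.36, SE 0.09, adjusted p = 0.125). Ifi47, Gbp5 and Gbp9 had overlapping libraries, with log2 fold changes of 0.12, -0.05 and 0.00067.

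**Figure D2:**
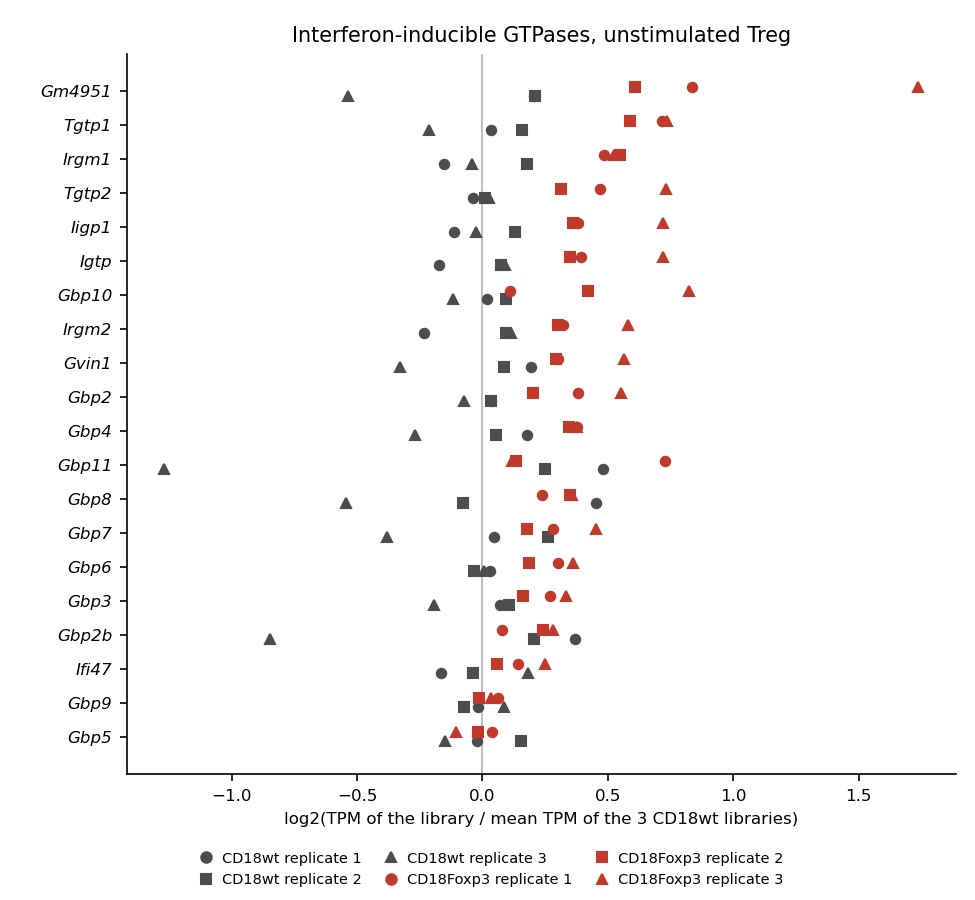
Level of 20 interferon-inducible GTPases in each unstimulated library, as log2 of the TPM over the mean TPM of the 3 CD18wt libraries, with replicates marked by shape. In 13 of the 20 genes all 3 CD18Foxp3 points lie to the right of all 3 CD18wt points, and in none to the left, while Gbp5, Gbp9 and Ifi47 overlap.

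Other interferon-stimulated genes showed a smaller shift. None of 41 tested members passed the test. In 15 all CD18Foxp3 libraries lay above all CD18wt libraries and in none below, where 8.74% and 6.9% of all genes tested did so. The median log2 fold change of the 41 members was 0.20. Of these members 11 had an unadjusted p under 0.05, against 1134 of all 11829 genes tested. DESeq2 called 4 members higher and 0 lower, against 86 and 124 of all genes tested. Without CD18wt replicate 3, 4 members rose, against 68 of all genes tested, and the median of the list was 0.18. Among 30 with a promoter in the table, 17 held the ISRE letters. Ifit1bl1, a member of the tetratricopeptide family induced by interferon, was at 111, 122 and 138 TPM in the CD18wt libraries and 179, 170.5 and 192 TPM in the CD18Foxp3 libraries (log2 fold change 0.52, SE 0.10, adjusted p = 0.0616). Irf7, a transcription factor that amplifies type I interferon production, stood at 26.2, 27.9 and 22.2 TPM in the CD18wt libraries and 37.4, 32.3 and 37.5 TPM in the CD18Foxp3 libraries (log2 fold change 0.46, SE 0.10, adjusted p = 0.0946). Isg15, Ifit1, Ifit2, Rsad2 and Usp18, which are among the most inducible genes of the type I response, overlapped between genotypes, with log2 fold changes from -0.21 to 0.09. Of 22 tested genes of MHC class I presentation, 5 lay wholly above and none below, with a median of 0.09 and no call, and 2 rose without CD18wt replicate 3 (median 0.12). The transcription factor Irf1, which both interferon types induce, had a log2 fold change of 0.30 (adjusted p = 0.1401).

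Helper-type and effector genes gave few single calls. In the list of type 1 helper genes, 6 of 21 tested members were wholly above and 1 below, where 8.74% and 6.9% of all genes tested did so. Of its members 7 had an unadjusted p under 0.05, against 1134 of all 11829 genes tested. DESeq2 called 4 members higher and 0 lower, against 86 and 124 of all genes tested. The median of the list was 0.06 (0.00075 without CD18wt replicate 3), with no call in edgeR. Without that library 2 members rose in edgeR, against 68 of all genes tested. Il18rap, the accessory chain of the IL-18 receptor, was at 4.79, 5.91 and 3.94 TPM in the CD18wt libraries and 8.55, 7.84 and 11.4 TPM in the CD18Foxp3 libraries (log2 fold change 0.89, SE 0.17, adjusted p = 0.0549). All CD18Foxp3 libraries were higher, as they were for the other chain, Il18r1, a labelled gene that rose by 0.98. Cxcr3, the chemokine receptor of type 1 cells, had 196, 173 and 157 TPM in the CD18wt libraries and 228, 221 and 234 TPM in the CD18Foxp3 libraries (log2 fold change 0.35, SE 0.09, adjusted p = 0.131). In the list of type 2 helper genes and genes of ST2+ Treg, 6 of 16 tested members were wholly above and 1 below, with a median of 0.19 and no call in edgeR. An unadjusted p under 0.05 was seen for 5, and DESeq2 called 2 higher and 1 lower. Its member Cd44 fell in edgeR without CD18wt replicate 3 (adjusted p = 0.0145), which was also the 1 fall among the effector genes that follow. Its members Ccr4, a skin-homing chemokine receptor, and Penk, which encodes proenkephalin, had log2 fold changes of 0.34 and 0.33 (adjusted p = 0.247 and 0.208). The labelled gene Il1rl1, which encodes ST2, the receptor for IL-33, rose by 1.21, and its call was lost without CD18wt replicate 3 (adjusted p = 0.0586).

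Of the 32 effector Treg genes tested, 10 lay wholly above and 3 below, where 8.74% and 6.9% of all genes tested did so. The list had a median log2 fold change of 0.16 and no call in edgeR. In this list 14 had an unadjusted p under 0.05, against 1134 of all 11829 genes tested. DESeq2 called 3 members higher and 2 lower, against 86 and 124 of all genes tested. Gzmb, which encodes the cytotoxic protease granzyme B, was at 3.40, 2.996 and 3.43 TPM in the CD18wt libraries and 6.73, 7.13 and 12.8 TPM in the CD18Foxp3 libraries (log2 fold change 1.40, SE 0.35, adjusted p = 0.1403). Tigit, a coinhibitory receptor of effector Treg, had 672, 528 and 492 TPM in the CD18wt libraries and 722, 684 and 827 TPM in the CD18Foxp3 libraries (log2 fold change 0.38, SE 0.11, adjusted p = 0.220). The members below were Nt5e, the ectoenzyme CD73 that makes adenosine, Cd44, an adhesion receptor for hyaluronan, and Irf4, a factor of effector differentiation, with log2 fold changes of -0.39, -0.33 and -0.42. The counterpart list of 23 central Treg genes had 5 members above, 3 below and a median of -0.04, which was 0.075 without CD18wt replicate 3, when Btg2, an antiproliferative gene, fell (adjusted p = 0.00376). S1pr1, the receptor that lets T cells leave lymphoid organs, was in it with a log2 fold change of 0.33 (adjusted p = 0.193). Chemokine receptors had a median of 0.29 over 19 tested members, which was 0.00073 without CD18wt replicate 3, and no tested member passed. Genes labelled by the study stand in no list. Of these, the chemokine receptor gene Ccr2 rose by 1.59 on the log2 scale (adjusted p = 0.0139, edgeR). Cxcr5, also a labelled chemokine receptor gene, had a log2 fold change of -0.86 and did not pass (adjusted p = 0.0616, edgeR).

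No adhesion gene of the lists, which hold no gene labelled by the study, passed the test. Itgal, the α chain of LFA-1, was at 528, 461 and 417 TPM in the CD18wt libraries and 402, 423 and 397 TPM in the CD18Foxp3 libraries, and the libraries overlapped (log2 fold change -0.22, SE 0.10, adjusted p = 0.492). Among 13 tested integrin chains outside the β2 family, 3 were wholly above and none below (median 0.24). Itgb7, the chain of the gut-homing integrin α4β7, had a log2 fold change of 0.24, and Itga2, the collagen-binding α2 chain, one of 1.27 (adjusted p = 0.481 and 0.277). Itgae, which encodes the integrin chain CD103, is a labelled gene and so stands in no list. Its log2 fold change was 1.30, with all CD18Foxp3 libraries above all CD18wt libraries in both cultures. It did not pass in edgeR (adjusted p = 0.0616, and 0.288 without CD18wt replicate 3), while DESeq2 called it (adjusted p = 8.8e-09). The paper reports more CD103 on the surface of splenic CD18Foxp3 Treg. The ligand Icam1 itself was measured at 46.0, 38.2 and 36.8 TPM in the CD18wt libraries and 50.1, 48.0 and 68.4 TPM in the CD18Foxp3 libraries (log2 fold change 0.43, SE 0.13, adjusted p = 0.244). Of 38 genes for integrin activation and the cytoskeleton of the synapse, 4 lay above and 4 below. That is 10.5% in each direction, near the 8.74% and 6.9% of all genes tested. Rasgrp2, an exchange factor that switches on Rap1 upstream of integrins, came nearest to a call with 27.0, 24.4 and 26.4 TPM in the CD18wt libraries and 34.8, 33.4 and 35.8 TPM in the CD18Foxp3 libraries (log2 fold change 0.39, SE 0.08, adjusted p = 0.0798). It passed without CD18wt replicate 3 (adjusted p = 0.00932).

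Of the metabolic genes in the lists, Hif1a was the 1 that passed the test. Among 19 tested hypoxia genes, the list had a median log2 fold change of -0.05 with 1 gene above and 2 below. For comparison with this and the next counts, 8.74% of all genes tested lay wholly above and 6.9% wholly below. Epas1, which encodes the paralog HIF-2α, was above at 3.27, 5.12 and 2.95 TPM in the CD18wt libraries and 7.02, 8.57 and 7.30 TPM in the CD18Foxp3 libraries (log2 fold change 0.98, SE 0.21, adjusted p = 0.0824), in the other direction from Hif1a, and rose without CD18wt replicate 3 (adjusted p = 0.0485). Bnip3, a mitophagy receptor and known HIF target, was below with a log2 fold change of -0.92 (adjusted p = 0.110), with 47.8% of its reads placed uniquely. Glycolysis genes had 1 of 19 members above and 1 below, oxidative phosphorylation genes 2 and 1 of 31, and genes of cholesterol and fatty acid synthesis 2 and 3 of 32, with medians of -0.02, -0.03 and -0.03. These 3 medians changed sign without CD18wt replicate 3, to 0.02, 0.12 and 0.04. Of 38 ribosomal protein genes, 2 lay below and none above, with Rps2 lowest at a log2 fold change of -0.53 (adjusted p = 0.0630). The ribosomal median was -0.04, and 0.08 without CD18wt replicate 3, when Rps2 fell (adjusted p = 0.0245). With all 6 libraries none of these members passed the test in edgeR.

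Genes of DNA replication and mitosis were low, and 30 of 34 had a positive log2 fold change (median 0.28) with 4 wholly above and none below. The shares over all genes tested were 8.74% wholly above and 6.9% wholly below. Mki67, the proliferation marker Ki-67, was at 4.03, 3.85 and 5.36 TPM in the CD18wt libraries and 6.34, 5.62 and 12.8 TPM in the CD18Foxp3 libraries (log2 fold change 0.87, SE 0.32, adjusted p = 0.431). CD18Foxp3 replicate 3 was highest, and without that library the median of the list was -0.027, against 0.45 without CD18wt replicate 3, so 1 library decides this value. No member passed the test in edgeR, 3 had an unadjusted p under 0.05, and DESeq2 called 0 higher and 0 lower. Over all 11829 genes tested, 1134 had such a p. Members of the TGF-β list, which signal through SMAD proteins, had a median of -0.14 over 18 genes, with 1 above and 3 below. T cell receptor signalling genes had 1 of 36 members above and 1 below, with log2 fold changes between -0.23 and 0.21.

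**Figure D3:**
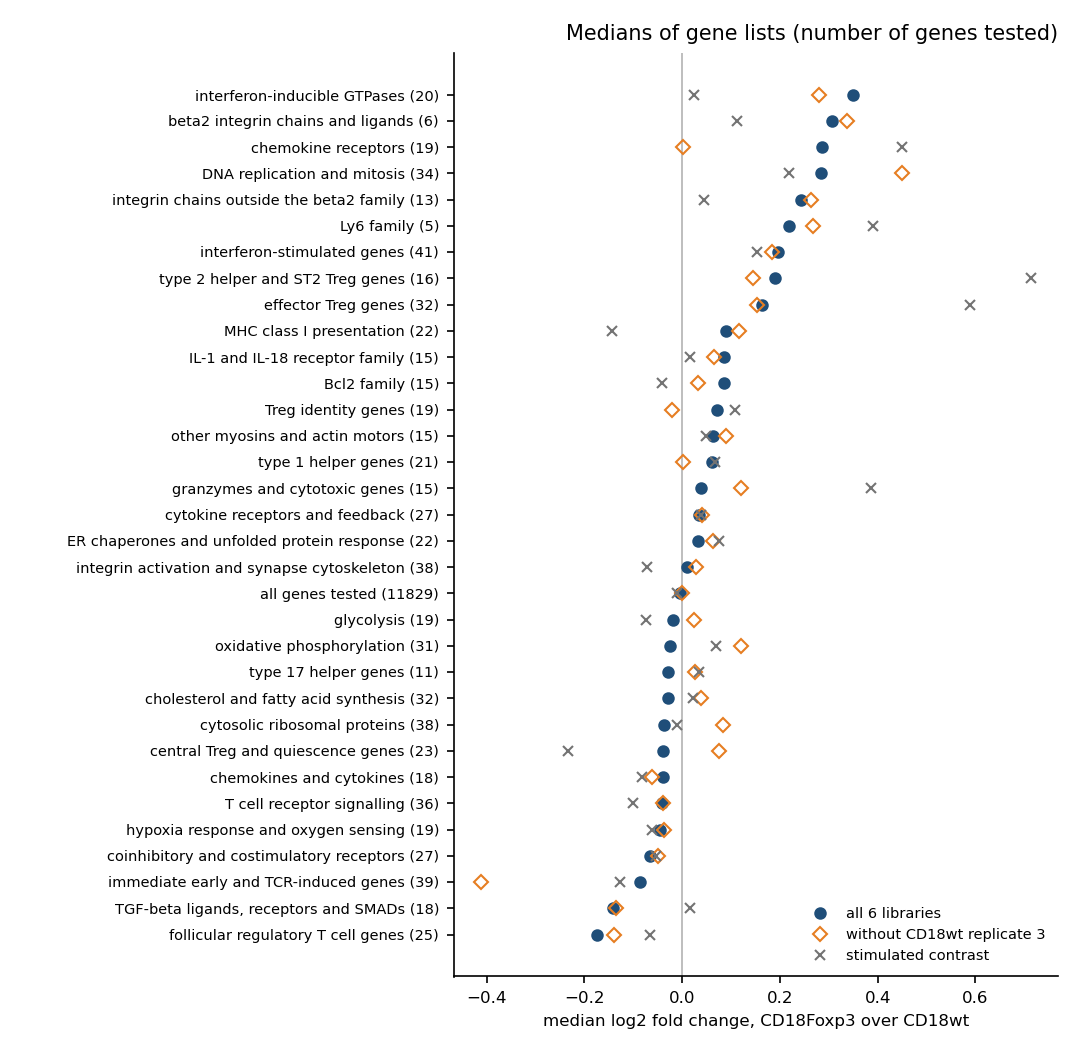
Median log2 fold change of CD18Foxp3 over CD18wt for the gene lists and for all 11829 genes tested, with all 6 libraries and without CD18wt replicate 3. Interferon-inducible GTPases (0.35) and follicular Treg genes (-0.17) keep their direction without this library, whereas immediate early genes move from -0.09 to -0.41 and chemokine receptors from 0.29 to 0.00073.

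Immediate early genes, which T cell receptor signals switch on within minutes, were read very differently in CD18wt replicate 3. Their summed level was 15491 and 16261 TPM in CD18wt replicates 1 and 2 but 3490 TPM in replicate 3, while the CD18Foxp3 libraries had 9025, 10392 and 10224 TPM. Fos, a subunit of the factor AP-1, was at 1844, 1545 and 30.3 TPM in the CD18wt libraries and 562, 1038 and 466 TPM in the CD18Foxp3 libraries. Dusp1, a phosphatase that switches off MAP kinases, had 1525, 1453 and 57.2 TPM in the CD18wt libraries and 453, 649.5 and 514 TPM in the CD18Foxp3 libraries. In both genes CD18wt replicate 3 was lowest and the other CD18wt libraries were highest. With all 6 libraries none of 39 tested members passed the test, and the log2 fold changes of Fos and Dusp1 were -0.71 and -0.90 (adjusted p = 0.926 and 0.877). Among the 39, 4 had an unadjusted p under 0.05, against 1134 of all 11829 genes tested. DESeq2 called 0 of the 39 higher and 0 lower. Without CD18wt replicate 3, 9 members fell and none rose, against 108 and 68 of all genes tested. Jund, an AP-1 subunit with 2126, 1900.2 and 605 TPM in the CD18wt libraries and 987, 1078 and 1108 TPM in the CD18Foxp3 libraries, then had a log2 fold change of -0.92 (adjusted p = 4.7e-05). Cd69, an early activation antigen that retains T cells in tissue, was at 64.1, 79.7 and 30.4 TPM in the CD18wt libraries and 38.9, 45.2 and 40.7 TPM in the CD18Foxp3 libraries, and its value without that library was -0.78 (adjusted p = 0.00092). The same fit gave Dusp1 -1.46 (adjusted p = 0.00940) and Fos -1.28 (adjusted p = 0.412). Whether the 2 remaining CD18wt libraries or the third reflect the level of this genotype cannot be told from 3 libraries.

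**Figure D4:**
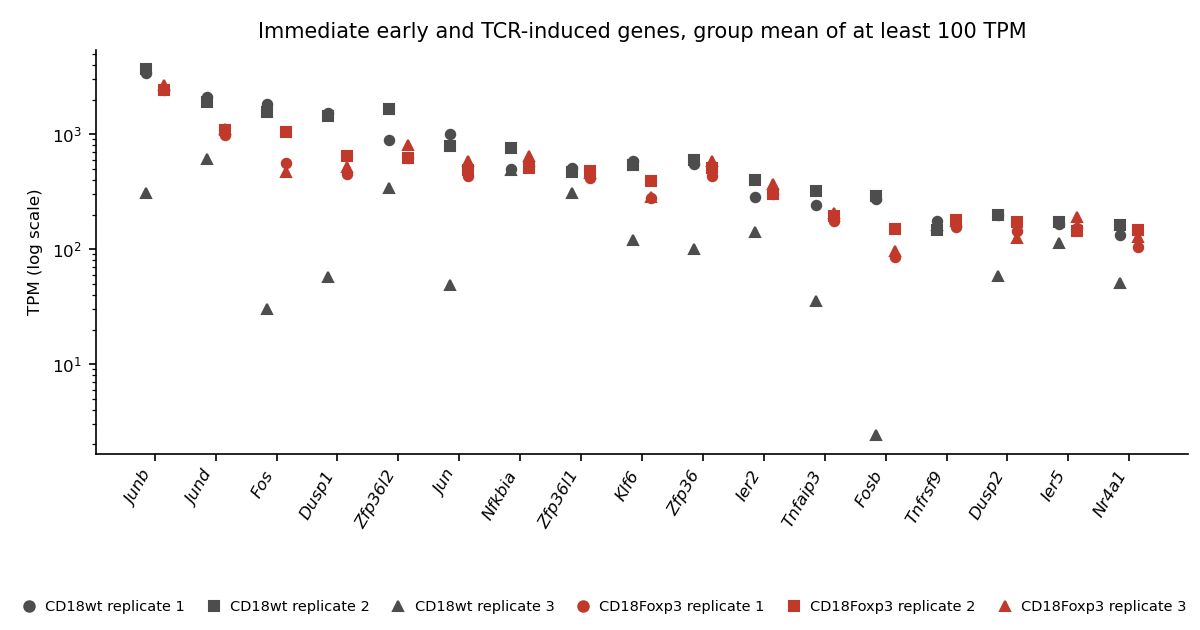
Level of 17 immediate early and receptor-induced genes in each unstimulated library, in TPM on a log axis. For genes such as Fos, Fosb, Jun and Dusp1, CD18wt replicate 3 lies far below the other 5 libraries, and CD18wt replicates 1 and 2 lie above the 3 CD18Foxp3 libraries.

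The counts of some called genes depend on how reads of near-identical sequences were placed. Of the 42 genes, 8 had fewer than 50% of their reads placed uniquely, and 6 could not be tested on unique reads alone. Exosc6, a subunit of the RNA exosome, had 81, 57 and 32 reads in CD18wt Treg and 0 in each CD18Foxp3 library. None of its reads was placed uniquely, and all its 59-base words also occur in Aars, the alanyl tRNA synthetase gene. Gm28052, a processed transcript that shares 77.0% of its words with Cmtr1, had 18.5, 6.91 and 6.01 TPM in the CD18wt libraries and 0, 0 and 0 TPM in the CD18Foxp3 libraries and no uniquely placed read either. A library without a read still allows up to 3 reads, and this limit covers counting error only. The labelled gene 1700047I17Rik2 shares all its words with Fam177a, and when they were summed its call was lost (adjusted p = 0.896). In a fit chosen after seeing the data, the 7 called genes that share words with a named partner were each summed with it, and 37 of the 42 calls were kept. Besides 1700047I17Rik2, the calls lost were those of Exosc6 with Aars (log2 fold change -0.07, adjusted p = 0.884), Gm28052 with Cmtr1 (0.09, adjusted p = 0.867), the labelled Gm28635 with Ctnnd1 (-0.28, adjusted p = 0.825) and Gm45837 with Pde2a (0.45, adjusted p = 0.0557). Tgtp1 with Tgtp2 (0.55, adjusted p = 0.0212) and Ly6c1 with Ly6c2 (0.78, adjusted p = 0.00626) were still called. On unique reads all 36 genes that could be tested were called again. B430305J03Rik, with 21, 80 and 49 reads in the CD18wt libraries and 0 in each CD18Foxp3 library, had no uniquely placed read. It shared no word with another gene, so summing could not check its call. Gm42418, with 37.8% of its reads placed uniquely, shared no word with another GENCODE transcript either. Where its other reads could also be placed was not tested. It was called again on unique reads (adjusted p = 0.0111, edgeR).

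The same contrast in stimulated Treg was set beside these values, from a fit of all 12 libraries. Of the 25 unlabelled genes, 20 had the same sign there, and Exosc6, at 0 TPM in every stimulated library, had no sign. All CD18Foxp3 libraries lay above all CD18wt libraries in 4.86% and below in 4.53% of the 11829 genes in that culture. Pou2f2, Tbc1d4 and Cd200 had log2 fold changes of -0.59, -0.48 and -0.46 in stimulated Treg, again with all CD18Foxp3 libraries below all CD18wt libraries. Hif1a had a log2 fold change of 0.17 and overlapping libraries after stimulation, and Chil5 one of -1.55. The interferon-inducible GTPases had a median of 0.02 in stimulated Treg, with 1 of 20 wholly above, and the follicular list one of -0.07 with 3 above and 3 below. Effector Treg genes had a median of 0.59 with 13 of 32 above and 1 below, and Epas1 a log2 fold change of 2.22. The difference between the cultures was tested as the interaction of genotype and stimulation. None of 12636 genes passed it in edgeR at either threshold, 485 had an unadjusted p under 0.05, and DESeq2 called 1 at the thresholds of the study. The cultures were run in parallel, and whether equal replicate numbers of a genotype mark cells of 1 mouse is not given in the sources used here. With the replicate number as a block within each genotype, a fit added after seeing the data, edgeR again called 0 genes. In these edgeR fits, both with low counts filtered, a difference between the cultures was therefore not shown for any single gene. Without that filter edgeR did call genes, and their number is given with the alternatives below.

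**Figure D5:**
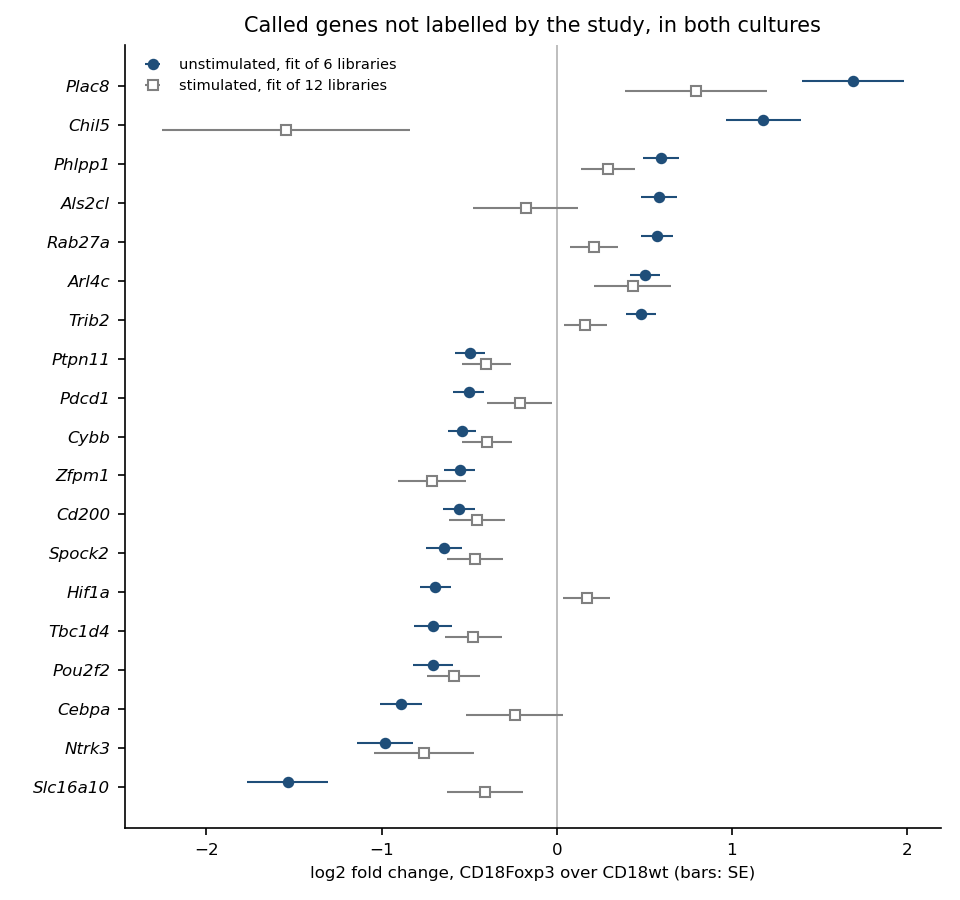
Log2 fold change of CD18Foxp3 over CD18wt with its SE for 19 genes that passed an adjusted p of 0.05 in unstimulated Treg and were not labelled by the study, in unstimulated Treg (fit of 6 libraries) and in stimulated Treg (fit of 12 libraries). Most genes lie on the same side of 0 in both cultures, while Hif1a, Als2cl and Chil5 change sides.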

How the data were processed

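RNA-Seq reads of 59 bases were trimmed, aligned to GRCm38 and counted per gene by the authors with CLC Genomics Workbench. The deposited tables hold, for each of 41457 genes, raw counts of total and unique exon reads, with no normalization. The deposited TPM and RPKM columns were not used, and TPM was computed here from total exon counts and exon length. Libraries were poly(A)-selected and amplified by PCR, so limits from counts cover counting error only. Depth was 10665174 to 19005482 exon reads in the 6 unstimulated libraries, and 92.7 to 93.3% of exon reads were placed uniquely. The sample labels gave the groups and replicate numbers.

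The tests used edgeR 4.0.16 (R 4.3.3). filterByExpr (minimum count 10) selected the genes, which were scaled by TMM and compared by the robust quasi-likelihood F-test with Benjamini-Hochberg adjustment, in the 6 unstimulated libraries. SE values were derived from the fold change and the F statistic. The interaction was fitted on all 12 libraries. The code was tested on simulated data. p-values measure the spread between libraries of mice of each genotype. DESeq2 1.42.0, other filters, unique reads, a replicate block and leaving out each library were alternatives. Summing near-identical genes (in 2 fits) and a replicate block within each genotype were added after seeing the data. Replicate numbers do not pair animals between genotypes.

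The genes named are Itgb2 and Itgal, unlabelled genes past the thresholds of the study, up to 12 rises and 12 falls among unlabelled genes with an adjusted p of at most 0.05, non-overlapping libraries, at least 1 TPM and 50% unique reads, up to 4 members of each list with the smallest p, and near-identical genes. Members of the immediate early, interferon and marker lists outside this rule, Foxp3, Bcl6 and labelled genes were named after their values were seen. The 38 lists (756 genes, 662 tested) and all members were chosen with earlier results of these data known. Genes labelled by the study were put in no list. The labels of the study's own plot were used to keep those genes out of this rule, to count overlaps and to name labelled companions. Promoters were taken from RefSeq (GRCm38.p6) and exons and shared 59-base words from GENCODE transcripts. Python 3.11.15, pandas 2.3.3 and matplotlib 3.10.9 were used for tables and figures.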

Additional observations from a re-analysis of the deposited data

How the results depend on the processing

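At a fold change of 1.5 and an adjusted p of 0.01, 16 genes passed in unstimulated Treg, and 42 at an adjusted p of 0.05. These counts were 134 and 324 without a filter on low counts, 86 and 210 with the Wald test of DESeq2, 0 and 5 with all 12 libraries in 1 fit, 41 and 115 with the replicate block, and 10 and 37 with 7 called genes summed with a near-identical partner. They ranged from 0 to 44 and from 13 to 183 when each library was left out in turn. All 42 calls were kept with the replicate block, without a filter and in DESeq2, 4 in the fit of 12 libraries, 37 in that summed fit, and 10 to 40 without 1 library. Of the calls, Gm28052 alone changed sign, to 0.0875 on the log2 scale when summed with Cmtr1. The replicate block is not backed by the design, since same-numbered libraries of the genotypes deviated together only weakly (correlations of -0.019, -0.012 and 0.0995). The interaction called 0 genes in edgeR with the filter on low counts, 31 in edgeR without that filter and 1 in DESeq2. With the replicate block within each genotype edgeR called 0, and same-numbered libraries of the cultures correlated at -0.0945 to 0.147. The cause of these changes was not tested. Among genes named from the lists, uncalled ones changed direction only when a library was left out: the log2 fold change ranged from -1.33 to 0.82 for Jchain, -0.15 to 0.028 for Uty, -0.11 to 0.93 for Mpeg1, -0.16 to 0.20 for Ddx3y, -0.46 to 0.0019 for Rpl35, -0.38 to 0.047 for Ly6k, -1.32 to 1.04 for Gzmk, -0.018 to 0.30 for Cd8b1 and -0.52 to 0.14 for Cd68. Depth limits genes at a few reads, and 3 libraries per genotype limit what a difference of under 1.5-fold can show.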

Other observations

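Heat shock genes, of which only those of the endoplasmic reticulum stand in a list above and which were chosen after their values were seen, are given as values. Hsph1, a co-chaperone of Hsp70, was at 55.2, 69.5 and 79.8 TPM in the CD18wt libraries and 37.8, 43.7 and 45.5 TPM in the CD18Foxp3 libraries in unstimulated Treg (log2 fold change -0.72, SE 0.14, adjusted p = 0.0724, edgeR). The CD18Foxp3 libraries were all lower, as they were for Dnajb1, a stress-induced partner of Hsp70, at 136, 135 and 121 TPM in the CD18wt libraries and 106, 103 and 105 TPM in the CD18Foxp3 libraries (log2 fold change -0.34, SE 0.08, adjusted p = 0.0946, edgeR). Hsp90aa1, the inducible form of Hsp90, had 342, 388 and 579 TPM in the CD18wt libraries and 277, 295 and 278 TPM in the CD18Foxp3 libraries (log2 fold change -0.66, SE 0.21, adjusted p = 0.333, edgeR), with CD18wt replicate 3 highest. Of 60 tested Hsp and Dnaj genes, 7 lay wholly below and 1 wholly above, where 6.9% and 8.74% of all genes tested did so. None of the 60 passed an adjusted p of 0.05 in edgeR, while 4 did without CD18wt replicate 3 and 3 in DESeq2. Over all 11829 genes tested, 108 fell and 68 rose without that library, and DESeq2 called 124 lower and 86 higher. The median log2 fold change of the 60 genes was -0.056 in unstimulated Treg and 0.064 in stimulated Treg.

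Of 11829 genes, 1034 lay wholly above and 816 wholly below in unstimulated Treg, and 575 and 536 in stimulated Treg. In 43 genes the libraries of the genotypes did not overlap in either culture and stood in opposite order, against 193 in the same order. Among the 43 were Il2ra, which encodes the high-affinity chain of the IL-2 receptor, with log2 fold changes of -0.36 in unstimulated and 0.50 in stimulated Treg, and Id3, an inhibitor of E proteins, with 0.42 and -0.60. No interaction of genotype and stimulation passed the test for either gene in edgeR.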
